A study of Mus musculus with 24 samples.

Results

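The genes described here were 10 genes by which the fat-storing cell of the mammary gland, the adipocyte, is commonly recognized. They comprised the transcription factors Pparg and Cebpa, the secreted proteins Adipoq, Lep, Retn and Cfd, the lipid droplet proteins Plin1, Plin4 and Cidec, and the fatty acid carrier Fabp4. They were chosen by symbol, each was matched to an Ensembl gene through GENCODE M1, and all 10 were found among the 37991 genes counted. Mammary tumors or glands of female mice were compared. PyMT mice were heterozygous for the polyoma middle T antigen, which the MMTV long terminal repeat drives in mammary epithelium, and came from PyMT males and FVB females. FVB mice of the same age without the transgene were the controls, so that both genotypes shared the FVB background. Each genotype gave 3 mice at 4 ages, namely 6, 8, 10 and 12 weeks, which the study takes as hyperplasia, adenoma/MIN (mammary intraepithelial neoplasia), early carcinoma and late carcinoma, and this gave 24 samples in 8 groups. By the study's account of its histology the carcinoma samples were mostly tumor cells. The control tissue was whole gland, in which epithelium lies within a fat pad.

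Adipocytes arise from progenitors in the stroma under a feed-forward pair of transcription factors. PPARγ, the nuclear receptor encoded by Pparg, and C/EBPα, a leucine zipper protein encoded by Cebpa, induce each other and together switch on the genes for fat storage and for adipokines, the hormones that fat secretes. In the mouse mammary gland the ducts grow through this fat pad, and the adipocytes around them supply lipid and signals to the epithelium.

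Total counts ran from 6969375 to 13516601 per sample, with a median of 8280269.5. Levels are given as normalized counts, which are raw counts divided by DESeq2's size factors. A gene was tested if its CPM (counts scaled to library size) reached 1 in 12 or more of the 24 samples, and 14918 did. All 10 genes passed this filter, and each would have passed on the 12 FVB samples alone, since each reached that CPM in all of them. The epithelial markers chosen to check the tissue were present in every library, with the 5 of them summing to 2104 to 4284 CPM in PyMT and 295 to 1962 CPM in FVB. Skeletal muscle markers exceeded 1000 CPM in 7 libraries of both genotypes. In addition 2 libraries stood apart, since of the genes whose median lay between 10 and 30 CPM, 4.40% lacked any read in FVB week 10 replicate 3 and 2.87% in PyMT week 8 replicate 2. In bulk tissue, fewer adipocytes per sample and less RNA of these genes per adipocyte cannot be told apart.

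For 9 of the 10 genes RefSeq gave 12 promoters on GRCm38.p6, here the 250 bases before each start site. Fabp4 had none in the table used. Since the regulators among these genes bind DNA themselves, the promoters were searched on both strands for the nuclear receptor element AGGTCA, for that element repeated directly with 1 base between, which PPARγ binds with its partner RXR, for the C/EBP core TTGCNNAA, and for TATAAA. The C/EBP core was in 4 of the 12 promoters, against 9.56% of 32851 promoters of all genes, and these 4 belonged to Lep, Cidec, Plin1 and Pparg. AGGTCA was in 2 of the 12, both of Pparg, against 14.0% of all promoters, and TATAAA was in 2, of Pparg and Cebpa, against 12.4%. The direct repeat was in none of the 12 and in 11 (0.0335%) of all promoters. A match of letters is not a site of binding, and no match says only that these letters are not in this window.

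The promoters with the C/EBP core and that of Cebpa itself are given here, 5′ to 3′ on the strand of the gene, because C/EBPα is itself one of the 10 gene products. Capitals mark TTGCNNAA or its reverse complement in the first 4 and TATAAA in Cebpa. The Lep promoter lies at chr6:29059971-29060220 on the plus strand, and its single palindromic core begins 55 bases before the start site. That of Plin1 lies at chr7:79732777-79733026 on the minus strand and holds the core at 187 and at 58 bases. That of Cidec, 1 of its 2 listed promoters, lies at chr6:113434765-113435014 on the minus strand with a core at 198 bases. Pparg had 3 listed promoters, and the one shown, the most downstream, lies at chr6:115421816-115422065 on the plus strand with cores at 215 and at 16 bases. The Cebpa promoter lies at chr7:35119043-35119292 on the plus strand with TATAAA at 30 bases.
Lep: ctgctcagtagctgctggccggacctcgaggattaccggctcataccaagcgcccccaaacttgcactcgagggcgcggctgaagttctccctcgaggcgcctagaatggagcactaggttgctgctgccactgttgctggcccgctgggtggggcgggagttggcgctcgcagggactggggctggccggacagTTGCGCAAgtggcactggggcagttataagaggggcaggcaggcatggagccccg
Plin1: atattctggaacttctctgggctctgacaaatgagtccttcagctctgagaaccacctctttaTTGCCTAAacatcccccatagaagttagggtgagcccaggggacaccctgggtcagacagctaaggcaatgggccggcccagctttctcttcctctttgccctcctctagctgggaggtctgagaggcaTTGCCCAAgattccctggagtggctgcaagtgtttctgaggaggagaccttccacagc
Cidec: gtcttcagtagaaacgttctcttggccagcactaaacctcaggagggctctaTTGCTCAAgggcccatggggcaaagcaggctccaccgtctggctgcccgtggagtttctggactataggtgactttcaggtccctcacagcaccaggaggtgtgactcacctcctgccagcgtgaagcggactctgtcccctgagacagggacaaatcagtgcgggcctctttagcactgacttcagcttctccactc
Pparg: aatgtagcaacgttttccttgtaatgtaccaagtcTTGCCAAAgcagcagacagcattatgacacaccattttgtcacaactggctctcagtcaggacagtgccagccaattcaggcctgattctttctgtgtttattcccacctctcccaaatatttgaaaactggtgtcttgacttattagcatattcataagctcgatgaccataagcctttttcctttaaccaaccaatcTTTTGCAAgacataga
Cebpa: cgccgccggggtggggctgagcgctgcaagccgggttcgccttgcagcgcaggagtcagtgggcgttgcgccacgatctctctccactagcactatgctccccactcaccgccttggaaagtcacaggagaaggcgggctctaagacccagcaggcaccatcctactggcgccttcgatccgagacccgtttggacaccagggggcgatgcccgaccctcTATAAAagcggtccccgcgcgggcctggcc

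At each week the question was whether the adipocyte genes differed between PyMT and FVB mice, and they did at every stage from hyperplasia on. The test was edgeR's quasi-likelihood F test, with p adjusted after Benjamini and Hochberg over all tested genes, and a gene was called lower where the adjusted p was under 0.05 with a log2 fold change below −1. At week 6 all 10 genes were called lower in PyMT, where 6.46% of all tested genes were. At week 8 it was 9 of 10, where 6.37% of all genes were called, and Cfd missed the threshold. At week 10 all 10 were called against a background of 9.09%, and at week 12 all 10 against 13.0%. In the fit of all 24 samples with week as a block, all 10 were called, beside 17.2% of all genes. The count of week 8 rested on single samples, since it was 5 without FVB replicate 2, where Pparg, Adipoq, Retn and Fabp4 were lost, and 4 without PyMT replicate 3, where Plin1 was lost beside these. Without PyMT replicate 1 it lost Lep, Retn and Plin4 (adjusted p of 0.0577 to 0.0763). The log2 fold change of each of the 10 genes was below 0 at each week with any 1 sample left out.

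The differences were also large beside those of other genes. From week 6 to week 12 the median log2 fold change of the 10 genes was −2.47, −3.87, −4.58 and −4.25 in turn, whereas the median over all tested genes lay between −0.08 and 0.01. At each of the 4 weeks every PyMT sample lay below every FVB sample of the same week for all 10 genes, which held for 20.4%, 21.7%, 21.6% and 25.2% of all genes. For all 10 genes the highest of the 12 PyMT samples also lay below the lowest of the 12 FVB samples, which held for 7.22% of all genes. The gap between these 2 samples was narrowest for Cfd, a ratio of 1.80, and widest for Adipoq, a ratio of 4.62. Summed, the 10 genes made up 0.615% to 1.42% of all counts in FVB and 0.0202% to 0.209% in PyMT.

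**Figure D1:**
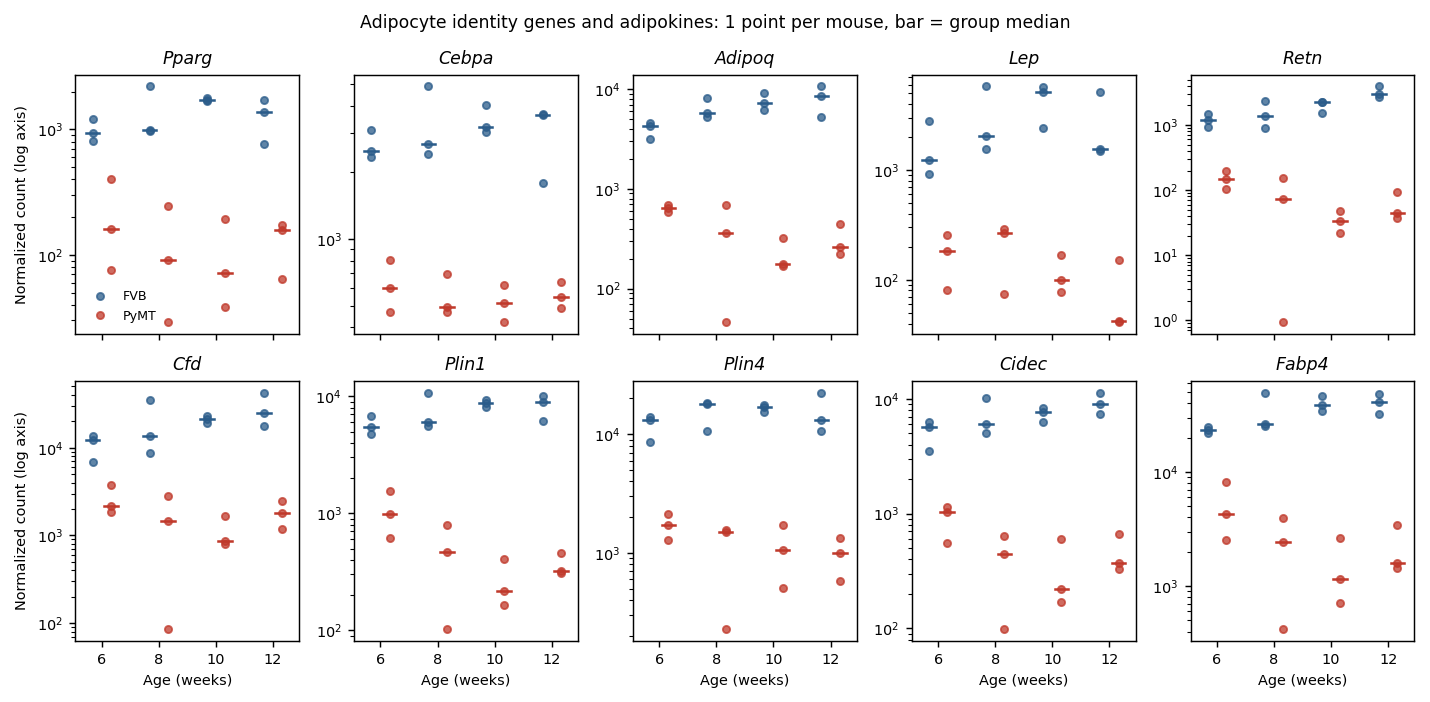
Normalized counts (vertical log axis, a scale of its own for each gene) of the 10 genes against age in weeks, 1 point per mouse, FVB in blue and PyMT in red, with a bar at the median of each group of 3. The PyMT points lie below the FVB points at every age for every gene, and 1 PyMT mouse of week 8 lies lowest among the week 8 samples.

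The transcription factors were both lower in PyMT. Pparg (ENSMUSG00000000440, mm9 chromosome 6, 115311239 to 115440419, plus strand) was counted at 1211, 807 and 943 in the 3 FVB mice of week 6 and at 75.7, 403 and 159 in the 3 PyMT mice. As a ratio of highest to lowest, the PyMT mice of week 6 thus spanned more than the FVB mice did, and their highest value came within a ratio of 2.00 of the lowest FVB value. At week 8 the values were 2203, 975 and 992 in FVB and 246, 29.1 and 91.2 in PyMT, at week 10 1776, 1686 and 1725 against 38.3, 192 and 71.7, and at week 12 1386, 759 and 1720 against 174, 158 and 64.7. The groups did not overlap at any week. The log2 fold change was −2.24 (SE 0.53) at week 6 and −4.07 (SE 0.54) at week 10. At week 6 Pparg had the highest adjusted p of the 10 genes in edgeR's quasi-likelihood fit (0.0301). The call of week 6 was lost without any 1 of the FVB mice (adjusted p of 0.0573 to 0.0677) and without PyMT replicate 1 (0.0561) or 3 (0.117). Over all weeks Pparg was 9.63-fold lower, a log2 fold change of −3.27 (SE 0.35, adjusted p = 4.37e-08 in the same fit).

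Cebpa (ENSMUSG00000034957, chromosome 7, 35904312 to 35906945, plus strand, a gene of 1 exon) fell least of the 10 over all weeks and varied least among the tumors. At week 6 its values were 3091, 2341 and 2483 in FVB and 466, 803 and 600.2 in PyMT, and at week 8 they were 4883, 2410 and 2674 in FVB and 693, 469.7 and 496 in PyMT. For week 10 they came to 3190, 3051 and 4041 in FVB and 422, 516 and 623 in PyMT, and for week 12 to 3671, 1788 and 3633 in FVB and 640.5, 487 and 548 in PyMT. All 12 tumors thus stayed between 422 and 803, including the week 8 mouse in which 8 of the other 9 genes were at their lowest. Over all weeks the log2 fold change was −2.44 (SE 0.15, adjusted p = 5.37e-12 in edgeR's quasi-likelihood fit), or 5.44-fold lower. Its 95% interval, −2.75 to −2.14, did not overlap those of 7 of the other 9 genes and overlapped those of Pparg (−4.00 to −2.54) and Cfd (−4.34 to −2.64).

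Among the secreted proteins, Retn and Lep fell most over all weeks and Cfd least, while at week 8 the fall of Adipoq lay between those of Retn and Lep. Retn, which encodes resistin, a hormone of mouse fat that opposes the action of insulin, lies on chromosome 8 (ENSMUSG00000012705, 3655770 to 3660110, plus strand). It was counted at 1195, 939 and 1453 in the FVB mice of week 6 and 106, 200.2 and 149 in the PyMT mice. At week 8 the values were 2325, 912 and 1390 against 154, 0.938 and 74.1, where the lowest PyMT value was 1 read, in replicate 2. At week 10 they were 2286, 1531 and 2225 against 48, 33.5 and 22.2, and at week 12 3932, 2683 and 2947 against 45.2, 94 and 37. Retn had the largest difference of the 10 at weeks 8, 10 and 12, with a log2 fold change of −4.31 (SE 1.06), −5.81 (SE 0.35) and −5.72 (SE 0.40). At week 10 this was 56.1-fold (adjusted p = 0.000109 in edgeR's quasi-likelihood fit). At week 8 the large SE went with an adjusted p of 0.0401 in the same fit, and the call was lost without any 1 of the 6 samples other than PyMT replicate 2 (adjusted p of 0.0578 to 0.124). Over all weeks its log2 fold change of −4.69 (SE 0.45) was the 41st lowest of the 14918 genes.

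Lep encodes leptin, which reports fat stores to the brain (ENSMUSG00000059201, chromosome 6, 29010220 to 29023877, plus strand). It varied widely among the FVB mice, with a mean of 2976 ± 1884 (SD, n = 12). The counts of week 6 were 927, 1234 and 2781 in FVB and 183, 80.3 and 256 in PyMT, and those of week 8 were 2054, 1553 and 5784 in FVB and 267, 74.1 and 288 in PyMT. Week 10 gave 5127, 5654 and 2419 in FVB and 78.3, 169 and 99.8 in PyMT, and week 12 gave 1561, 1477 and 5136 in FVB and 41.1, 152 and 42.5 in PyMT. The highest FVB mouse of week 6 exceeded the lowest of every later week, and still no FVB mouse reached down to the PyMT range. At week 6 Lep had the largest difference of the 10, a log2 fold change of −3.23 (SE 0.54, adjusted p = 0.00808 in edgeR's quasi-likelihood fit), and over all weeks it was 20.3-fold lower (−4.34, SE 0.40).

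Adipoq encodes adiponectin, which raises sensitivity to insulin (ENSMUSG00000022878, chromosome 16, 23146609 to 23158101, plus strand). It was at 4627, 3179 and 4241 in FVB against 587, 684 and 644 in PyMT at week 6, where the PyMT mice were close together. At week 12 the values were 8493, 5277 and 10700 against 448, 262 and 225. The log2 fold change ran from −2.66 (SE 0.21) at week 6 to −5.04 (SE 0.34) at week 10, and at week 6 it had the smallest adjusted p of the 10 (0.000923).

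Cfd encodes adipsin, the complement factor D protease that fat secretes (ENSMUSG00000061780, chromosome 10, 79353598 to 79355401, plus strand). It was counted at 13730, 6820 and 12310 in FVB and 1873, 2193 and 3797 in PyMT at week 6. At week 8 the FVB mice were at 34720, 8764 and 13520 and the PyMT mice at 2850, 86.3 and 1462. Replicate 1 was highest and replicate 2 lowest in both genotypes at week 8, and the FVB values of that week spanned a wider ratio than those of any of the other 9 genes. The week 8 difference, −3.66 on the log2 scale (SE 1.10), lay within the range of the called genes but did not pass edgeR's quasi-likelihood test (adjusted p = 0.0722). It passed without PyMT replicate 2 (adjusted p = 0.0417 in the same fit, log2 fold change −3.11), by DESeq2's Wald test (adjusted p = 0.0162) and by limma voom with sample weights (adjusted p = 0.0142). At week 6 it was called, and that call was lost without PyMT replicate 1 (adjusted p = 0.0559). At weeks 10 and 12 Cfd was 18.5-fold and 14.9-fold lower, and both were called.

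The lipid droplet proteins were lower together, and all 3 were called at every week. Plin1, whose product perilipin 1 coats the adipocyte droplet and gates access of lipases to it (ENSMUSG00000030546, chromosome 7, 86866050 to 86877662, minus strand), was at 6788, 4774 and 5436 in FVB and 619.6, 1539 and 979.7 in PyMT at week 6. At week 8 it was at 10700, 5559 and 6011 against 787, 103 and 465, at week 10 at 8730, 8088 and 9264 against 166, 407 and 218, and at week 12 at 8916, 6108 and 9991 against 461, 318 and 310.5. The PyMT mice of weeks 10 and 12 lay below all 3 PyMT mice of week 6. At week 12 it had the smallest adjusted p of the 10, 0.000116 in edgeR's quasi-likelihood fit, at a log2 fold change of −4.48 (SE 0.28).

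Cidec encodes a protein that joins small droplets into the single large droplet of white fat (ENSMUSG00000030278, chromosome 6, 113374628 to 113385754, minus strand). It ran from 3486 to 11290 (median 6858) over the 12 FVB mice and from 99.4 to 1154 (median 500.4) over the 12 PyMT mice, with no overlap. Its log2 fold change was −2.50 (SE 0.34) at week 6 and between −4.45 (SE 0.50, week 10) and −4.14 (SE 0.67, week 8) thereafter. Plin4 encodes a perilipin of nascent small droplets (ENSMUSG00000002831, chromosome 17, 56240014 to 56249225, minus strand). It ran from 8556 to 22310 (median 14640) in FVB and from 229.7 to 2108 (median 1303) in PyMT. Its exons overlap those of Hdgfrp2 on the opposite strand, the strand setting of the counting was not given in the sources used here, and so its values are less certain than those of the other 9 genes, none of which overlaps an annotated gene. With that limit Plin4 was 6.97-fold lower at week 6 and 15.4-fold lower at week 12.

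Fabp4 encodes the adipocyte fatty acid binding protein that carries fatty acids through the cytoplasm (ENSMUSG00000062515, chromosome 3, 10204347 to 10208576, minus strand). It was the most abundant of the 10 in every sample of both genotypes per length of transcript. The counts were 24920, 21800 and 23500 in FVB and 2543, 8108 and 4308 in PyMT at week 6, and 49370, 25480 and 26370 against 3924, 423 and 2444 at week 8. At week 10 they were 34480, 46680 and 38930 against 710, 2636 and 1156, and at week 12 40880, 32110 and 47930 against 3399, 1596 and 1451. PyMT replicate 2 was the highest tumor at weeks 6 and 10 and the lowest at week 8. The week 6 call of Fabp4 was lost without PyMT replicate 3 (adjusted p = 0.0614). Over all weeks Fabp4 was 13.8-fold lower (log2 fold change −3.78, SE 0.37, adjusted p = 7.67e-09 in edgeR's quasi-likelihood fit).

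**Figure D2:**
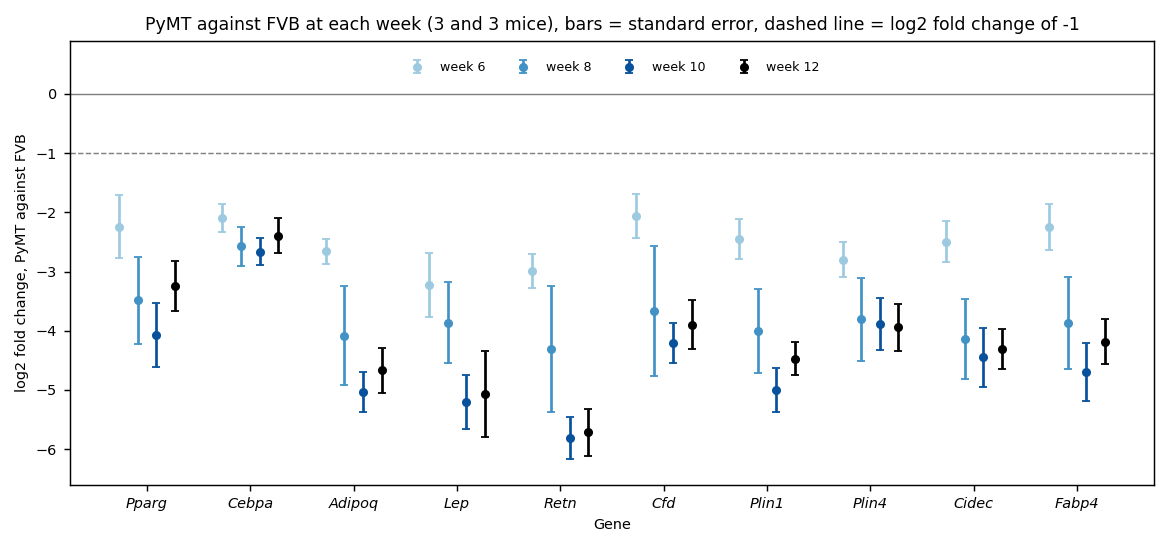
Log2 fold change of PyMT against FVB (vertical axis) for each of the 10 genes at weeks 6, 8, 10 and 12, from light blue to black, with bars of 1 standard error and 3 mice per genotype and week. Every value lies below the dashed line at −1, the bars are longest at week 8 for 9 of the 10 genes (for Lep at week 12), and Retn lies lowest at weeks 8, 10 and 12.

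The genes were then ordered by level per length of transcript, as RPKM over exons of GENCODE M1. In FVB the medians over 12 mice were 6111 for Fabp4, 2287 for Cfd, 506 for Adipoq, 459 for Plin1, 431 for Cidec, 293 for Plin4, 138 for Cebpa, 136 for Retn, 78.0 for Pparg and 76.7 for Lep. Fabp4 exceeded Cfd in 12 of 12 FVB mice and Cfd exceeded Adipoq in 12 of 12, whereas Plin1 exceeded Cidec in only 6 of 12, Pparg exceeded Lep in 6 of 12 and Cebpa exceeded Retn in 8 of 12, so that these neighbours had no fixed order. In PyMT the order began alike, at 468 RPKM for Fabp4 and 223 for Cfd. It then ran through Cidec (32.2), Adipoq (29.6), Plin4 (27.0), Plin1 (26.3) and Cebpa (23.7) to Pparg (7.58), Retn (4.65) and Lep (4.51). From Cidec to Plin1 each gene exceeded the next in only 5 to 8 of 12 tumors, and Retn exceeded Lep in 8 of 12. Cebpa exceeded Pparg in 12 of 12 tumors. The medians of 5 genes that spanned 138 to 506 RPKM in the control gland thus lay within 23.7 to 32.2 RPKM in the tumors. Single tumors ran wider, from 3.78 RPKM for Adipoq to 92.4 RPKM for Plin1 among these genes.

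The unequal falls also showed when each gene was set against the mean of the other 9 in the same sample, on the log2(normalized count + 1) scale, which sets aside the level that the genes share. Cebpa lay 1.06 below that mean in FVB and 0.61 above it in PyMT, a shift of 1.67, and was shifted upward at 4 of 4 weeks (by 0.52, 1.92, 2.14 and 2.09 from week 6 to week 12). Retn was shifted downward by the most, from −1.88 in FVB to −3.16 in PyMT, and at 4 of 4 weeks. Adipoq was shifted downward at 4 of 4 weeks, from 0.10 to −0.32, and Pparg upward at 4 of 4, from −2.43 to −1.97. At week 6 the shift was only −0.07 for Adipoq and 0.07 for Pparg. The shift over all weeks was smallest in size for Fabp4, at −0.07, and for Cidec, at −0.09. The ranges in the genotypes overlapped for every gene but Cebpa, which was at −1.66 to −0.54 in FVB and −0.44 to 2.88 in PyMT. Since the 10 shifts are bound to balance, they describe the set and were not tested.

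**Figure D3:**
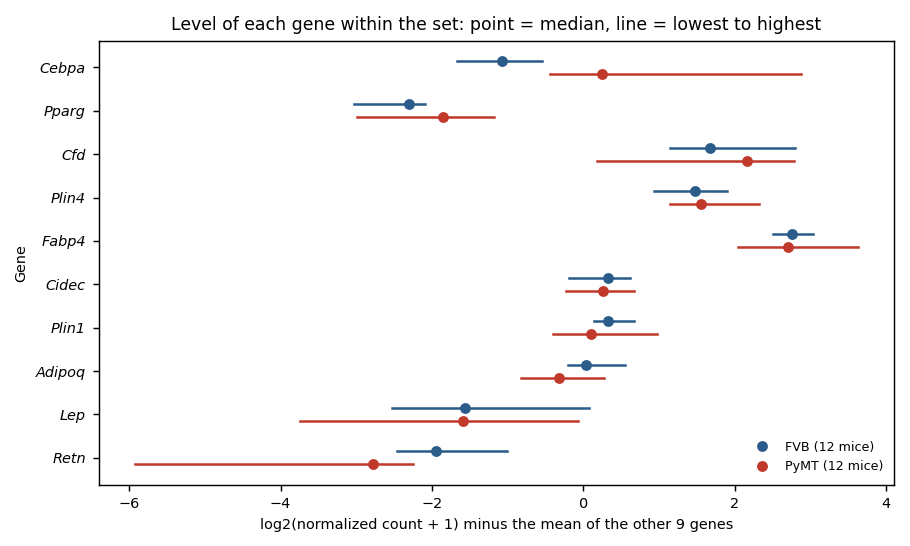
Level of each gene less the mean of the other 9 in the same sample (horizontal axis, log2(normalized count + 1) scale), with the median as a point and the lowest to highest of 12 mice as a line, FVB in blue and PyMT in red, ordered by the shift. The median of Cebpa at the top was −1.08 in FVB and 0.25 in PyMT and that of Retn at the bottom −1.95 and −2.78, while those of Fabp4 and Cidec hardly moved.

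The next question was whether the genes changed with age within a genotype. In PyMT, week 12 was compared with week 6 in 1 fit over the 8 groups. In edgeR's quasi-likelihood fit 0 of the 10 genes passed, and 0% of all genes did. At an unadjusted p under 0.05 there were 2 of the 10 and 1004 of all genes, and DESeq2 called 114 genes and limma voom 55, none of the 10 among either. The log2 fold changes were negative for 10 of 10 genes, with a median of −1.02, where the median of all genes was −0.02. They ran from −0.15 for Cebpa to −1.51 for Plin1, whose 95% interval was −2.52 to −0.51 (adjusted p = 0.424 by the same edgeR test). Without PyMT week 6 replicate 2 the values of Pparg and Cebpa turned to 0.14 and 0.06.

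In FVB the same comparison gave 0 of 10 genes and again 0% of all genes, with 1 of the 10 and 625 of all genes at an unadjusted p under 0.05. The log2 fold changes were positive for 10 of 10 genes, with a median of 0.72, and were highest for Retn at 1.39 (95% interval 0.08 to 2.70) and Cfd at 1.33 (95% interval −0.13 to 2.80). The sign was not kept for 3 of them, which were at −0.13 for Lep and −0.01 for Plin4 without FVB week 12 replicate 3, and at −0.01 for Cebpa without FVB week 12 replicate 1. DESeq2 called 21 genes and none of the 10, and limma voom with sample weights called 87, among them Adipoq (adjusted p = 0.0480) and Retn (adjusted p = 0.0205). In these control glands the Retn values of week 12 all lay above those of week 6, as given above.

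Whether the genotype difference itself changed was tested as an interaction. From week 6 to week 12 edgeR's quasi-likelihood test passed 0 of the 10 and 0% of all genes, with 5 of the 10 and 691 of all genes at an unadjusted p under 0.05. The change was negative in 10 of 10 genes, with a median of −1.85 on the log2 scale, and was furthest from 0 for Retn, at −2.74 (95% interval −4.65 to −0.83, adjusted p = 0.923). DESeq2 called 11 genes and limma voom 10, none of the 10 adipocyte genes. From week 8 to week 10, the step from adenoma/MIN to early carcinoma, 0 of the 10 passed beside 0.00670% of all genes, with 0 of the 10 and 533 of all genes at an unadjusted p under 0.05, and DESeq2 and limma voom called none of the 10 either. The larger differences at later weeks were therefore not separated from the spread between mice.

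The receptors for the adipokines did not follow one direction. Over all weeks 2 of the 4 listed were called lower. Adipor2, a receptor of adiponectin, ran from 4114 to 10080 (median 5687) in FVB and from 960.1 to 2312 (median 1234) in PyMT, and was 4.45-fold lower (log2 fold change −2.15, SE 0.17). Cdh13, which encodes T-cadherin, a binding protein of adiponectin on endothelium, was 5.76-fold lower (−2.53, SE 0.21). Adipor1, the other adiponectin receptor, had nearly the same median in both genotypes, 1373 in FVB and 1367 in PyMT. Its log2 fold change was −0.12 (SE 0.12, adjusted p = 0.399 in edgeR's quasi-likelihood fit), and it turned to 0.21 when counts were scaled by library size alone, a scaling that moves the median of all genes from −0.03 to 0.26. Lepr, the leptin receptor, was at 48.9 to 195 (median 121) in FVB and 99.4 to 414 (median 192) in PyMT. Its log2 fold change of 0.84 (SE 0.24, adjusted p = 0.00514 in edgeR's quasi-likelihood fit) lay inside the limit of 1 and under that limit it was not called, but with scaling by library size alone it was called higher (1.17, adjusted p = 0.000158 in that fit). By week it was 1.42 at week 6 and −0.06 at week 12, and neither passed the test, though week 6 did with that other scaling (1.75, adjusted p = 0.0236 in edgeR's quasi-likelihood fit). So over all weeks leptin's own transcript was 20.3-fold lower, while that of its receptor was 1.79-fold as high in PyMT as in FVB. The receptor's difference lay inside the limit of 1 and was not seen at week 12.

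Relatives of the 10 genes within the same families were set beside them. Of the perilipins outside the set, Plin2, which coats droplets in most cell types including mammary epithelium, was at 1897 to 5164 (median 2598) in FVB and 1264 to 4549 (median 2562) in PyMT. Its log2 fold change was −0.14 (95% interval −0.53 to 0.25) over all weeks, and 0.18 with scaling by library size alone. Plin3, also widely expressed, had a log2 fold change of 0.75 (SE 0.11, adjusted p = 2.17e-06 in edgeR's quasi-likelihood fit), inside the limit of 1, and 1.06 with scaling by library size alone. Plin5, a perilipin of oxidative tissues, was called lower over all weeks (−1.79, SE 0.54) and at none of the 4 weeks alone. By contrast the intervals of Plin1 (−4.72 to −3.31) and Plin4 (−4.21 to −3.03) lay wholly below that of Plin2. Fabp5, the epidermal fatty acid binding protein, had a log2 fold change of −0.73 (95% interval −1.11 to −0.35), against −3.78 (−4.55 to −3.02) for Fabp4. Retnla, a resistin relative that alternatively activated macrophages also make, was 7.35-fold lower (95% interval −3.50 to −2.26 on the log2 scale), against 25.9-fold for Retn (−5.62 to −3.77). In 2 other pairs the intervals overlapped. They were −4.63 to −0.99 for Fabp3, the carrier of heart and skeletal muscle, against Fabp4, and −4.43 to −0.92 for Cidea, a droplet protein of brown fat, against −4.55 to −3.21 for Cidec. Cidea was added after its values were seen, and no test was made of the difference between relatives beyond these intervals.

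Other adipocyte genes were taken from lists by function, which were chosen with earlier results of these data known. Over all weeks 17.2% of all tested genes were called lower. Fat uptake and adipocyte metabolism was the most uniform list. All 13 of its genes were called lower over all weeks, at a median log2 fold change of −3.68, close to the −3.83 of the 10 genes. At weeks 6, 8, 10 and 12 it was 12, 10, 13 and 13 of 13. Of all genes 6.46%, 6.37%, 9.09% and 13.0% were called lower at these weeks. Car3, a carbonic anhydrase abundant in fat and muscle, was at 40580 to 103800 (median 63080) in FVB and 949 to 7892 (median 2956) in PyMT, 19.9-fold lower. Aqp7, the channel through which adipocytes release glycerol, was 19.7-fold lower, with 1 PyMT library at 0.

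Of 11 adipogenic regulators, 6 were called lower and 1 higher, at a median log2 fold change of −2.21. Rxrg, a partner of PPARγ, fell most (−4.51, SE 0.70). It was at 38.4 to 239 (median 96.8) in FVB and at 0 to 34.7 (median 3.31) in PyMT, where 5 of 12 libraries had no read. Ebf1, a factor of early adipogenesis that B cells also use, was 10.8-fold lower. Srebf1, which drives fatty acid synthesis in liver, fat and mammary epithelium, was 3.02-fold higher (1.59, SE 0.16, adjusted p = 1.2e-08 in edgeR's quasi-likelihood fit), at 2871 to 6416 (median 3689) in FVB and 5333 to 19750 (median 12650) in PyMT.

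Of the 9 other secreted products tested, of 10 listed, 6 were called lower and 1 higher, with a median of −2.88. Sfrp5, a secreted Wnt inhibitor, and Rbp4, the retinol carrier of plasma, fell most, with log2 fold changes of −4.52 (SE 0.97) and −4.30 (SE 0.51) and with 7 and 2 PyMT libraries at 0. The level of Sfrp5 was low and uneven, at 6.26 to 485 normalized counts in FVB and 0 to 19.9 in PyMT, and these ranges overlapped. By week Sfrp5 was called only at week 12. Apln, which encodes the vascular peptide apelin, was 2.08-fold higher (SE 0.29 on the log2 scale, adjusted p = 0.00361 in edgeR's quasi-likelihood fit), and its genotype ranges overlapped, at 18.9 to 243 (median 107) in FVB and 67.5 to 423 (median 217) in PyMT. Its log2 fold change of 1.06 lay just past the limit of 1, and it was called at none of the 4 weeks alone.

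Of the 10 other droplet proteins and lipases tested, of 11 listed, 6 were called lower and 1 higher, with a median of −1.61. With scaling by library size alone it was 6 lower and 3 higher, as Plin3 and G0s2 (1.05) then also passed the limit, G0s2 being named after its values were seen. The lipases of fat breakdown fell most, Lipe, hormone-sensitive lipase, 13.1-fold and Pnpla2, adipose triglyceride lipase, 7.41-fold. Abhd5, the activator of Pnpla2, was 2.54-fold higher (1.35, SE 0.16), at 708 to 1545 (median 1006) in FVB and 1863 to 4036 (median 2761) in PyMT, with no overlap. At week 6 Abhd5 was at 951.5, 872 and 764 in FVB against 4036, 2940 and 3809 in PyMT. The gap was narrower at week 12, with 1454, 1096 and 1457 in FVB against 1863, 2230 and 1975 in PyMT. Of the 6 other fatty acid binding proteins only Fabp3 and Fabp5 were abundant enough to test, and Fabp3 was called lower (−2.81, SE 0.88). All 5 skeletal muscle markers were also called lower over all weeks, at a median of −4.79 on the log2 scale, and their part in the Fabp3 result was not tested.

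**Figure D4:**
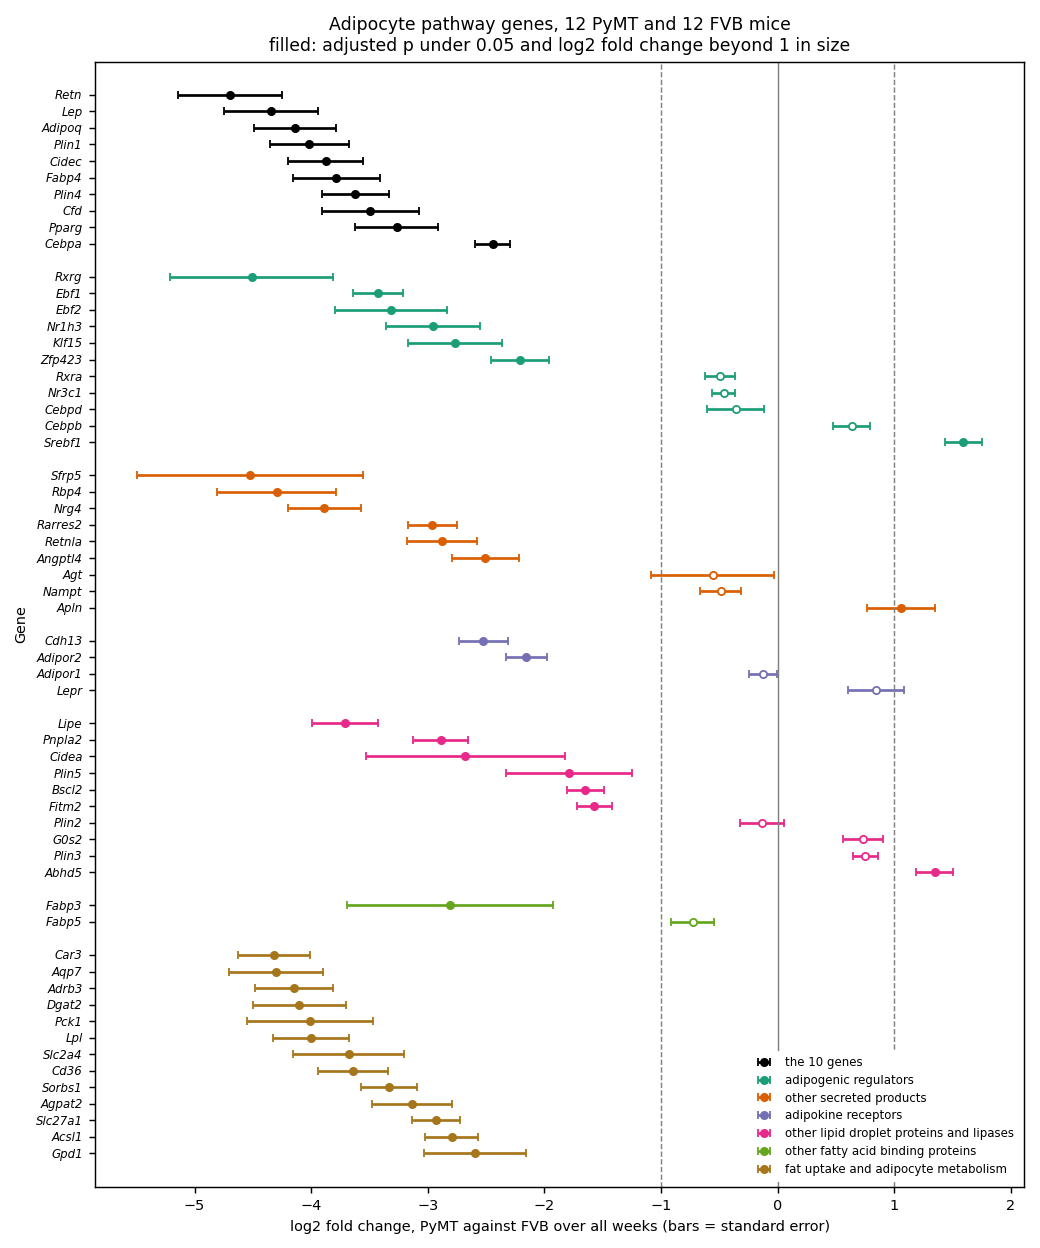
Log2 fold change of PyMT against FVB over all weeks (horizontal axis) with bars of 1 standard error for the 10 genes in black and 6 lists of adipocyte pathway genes in colors, 12 mice per genotype. Filled points passed the test and the limit of 1 in size, and the 10 genes and all 13 fat uptake and metabolism genes lie left of −2, while Srebf1, Apln and Abhd5 lie right of 1.

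The genes of other cell types moved too. The 5 epithelial markers included 4 called higher in PyMT, and the sum of all 5 had a median of 863 CPM in FVB and 2604 CPM in PyMT. The remaining marker, Krt19, went the other way, with a log2 fold change of −0.59 over all weeks (SE 0.23). It passed the adjusted p (0.0388 in edgeR's quasi-likelihood fit) but lay inside the limit of 1. Of the stromal lists, 5 of 5 fibroblast, 4 of 4 tested adipocyte progenitor and 4 of 4 endothelial markers were called lower, with median log2 fold changes of −1.94, −2.10 and −2.39. The progenitor sum was 519 to 982 CPM in FVB and 136 to 268 CPM in PyMT. Of the 4 macrophage markers none was called over all weeks in edgeR's quasi-likelihood fit, where Csf1r (log2 fold change −0.67, adjusted p = 0.00154) and Mrc1 (−0.87, adjusted p = 0.000459) passed the adjusted p but lay inside the limit of 1. At week 10 the same fit called both lower, Csf1r at −1.02 (adjusted p = 0.0261) and Mrc1 at −1.20 (adjusted p = 0.0149), and called none of the 4 at the other 3 weeks. Both week 10 calls were lost with scaling by library size alone (adjusted p of 0.0943 and 0.0553 in that fit). The part of these markers in the fall of the adipocyte genes was not tested. The median fall of the 10 adipocyte genes, −3.83, was larger than that of any of the 3 stromal lists. It was smaller than that of the skeletal muscle markers given above.

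Skeletal muscle and the libraries with many genes at 0 were checked by leaving libraries out. For brown fat no libraries were left out, and only the level of Ucp1 is given. Without the 7 libraries with over 1000 CPM of muscle markers all 10 genes were still called lower over all weeks, beside 15.4% of all genes, and without PyMT week 8 replicate 2 and FVB week 10 replicate 3 all 10 were, beside 16.3%. Without PyMT week 8 replicate 2 alone, all 10 were called at week 8, beside 6.10%. That mouse had the lowest mean of the 10 genes of all 24 samples, 6.29 on the log2(normalized count + 1) scale, and the next lowest tumor was at 7.64, the highest tumor at 9.72 and the lowest FVB mouse at 11.7. Ucp1, the heat-producing protein that defines brown fat, ran from 0.562 to 758 CPM in FVB and from 0.363 to 469 CPM in PyMT, so that its level differed widely within each genotype. It was called lower over all weeks, at a log2 fold change of −2.72 (SE 1.10, adjusted p = 0.0432 in edgeR's quasi-likelihood fit), a call that was lost with scaling by library size alone (−2.29, adjusted p = 0.0706), and by week it was called at week 10 and at no other. The part of Ucp1-bearing fat in the fall of the 10 genes was not tested. In the FVB mice nearly without Ucp1 (week 8 replicate 3 and week 12 replicate 3, under 1 CPM) the mean of the 10 genes was 12.4 and 13.1. The latter was the highest of all 24 samples. These mice were picked by their Ucp1, and the values are a description.

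**Figure D5:**
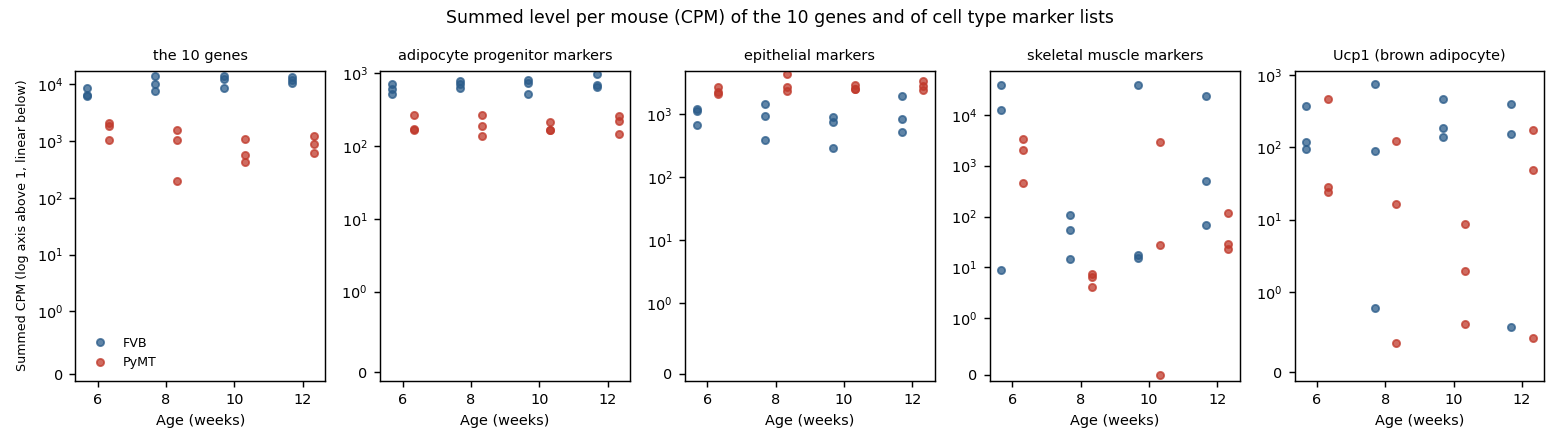
Summed CPM per mouse (vertical axis, logarithmic above 1 and linear below) of the 10 genes and of 4 marker lists against age in weeks, FVB in blue and PyMT in red. The 10 genes and the adipocyte progenitor markers are lower in every PyMT mouse and the epithelial markers higher, whereas skeletal muscle markers and Ucp1 vary within both genotypes.

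Finally, the tested genes outside the set whose levels were most like the mean of the 10 were found by Pearson's r of log2(normalized count + 1). Over all 24 samples these were Lpl (r = 0.992), the lipase that frees fatty acids from lipoproteins, Cd36 (0.991), the fatty acid translocase, Car3 (0.991), Slc1a5 (0.991), a transporter of neutral amino acids, and Abcd2 (0.990), a peroxisomal transporter of fatty acids. Those values hold the genotype difference itself. Within the 12 FVB mice they were Lpl (0.955), the actin-severing protein gelsolin Gsn (0.955), Abcd2 (0.952), Acp5 (0.945), a tartrate-resistant acid phosphatase, and Cd36 (0.944). Within the 12 PyMT mice they were the carboxylesterase Ces1f (0.947), the actin-binding protein Ablim1 (0.937), Slc7a10 (0.936), a transporter of small neutral amino acids, Lpl (0.934) and Car3 (0.932). Lpl was thus the 1 gene among the first 5 in all of these, and Abcd2 and Cd36 were not among those of PyMT. The samples share their libraries and depth between genes, and these values are a description.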

How the data were processed

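Total RNA of frozen mammary tissue of 24 mice, depleted of ribosomal RNA, was sequenced from directional libraries by the authors. After adapter trimming, the authors mapped reads on mm9 using GSNAP and tallied each Ensembl gene using HTSeq, and the deposited table of 37991 genes holds these raw counts with no normalization. Symbols and coordinates came from GENCODE M1 (37205 genes), and all 24 columns were matched to their samples by name. Totals ran from 6969375 to 13516601. No 2 replicates were copies, with a chi-square per gene of 19.3 to 244 over 24 pairs.

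Genes that reached a CPM of 1 in 12 or more samples (14918) were tested in R 4.3.3 by edgeR 4.0.16 (quasi-likelihood, TMM scaling, Benjamini-Hochberg adjustment). The groups compared at a week held 3 PyMT and 3 FVB mice. The fit over all weeks added week as a block, and comparisons between weeks used 1 fit of all 8 groups, called at an adjusted p under 0.05 with no limit on the fold. The standard error is the log2 fold change over the square root of F. DESeq2 1.42.0, limma 3.58.1 voom with sample quality weights and the other alternatives named in the closing section were run beside it. Levels are counts over DESeq2 size factors, plus 1 before log2, or RPKM over merged exons. Tables and figures were made in Python 3.11.15 with pandas 2.3.3, NumPy 2.4.6 and matplotlib 3.10.9, and the fits were tested on simulated data with 200 changed genes.

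All 10 genes are named, with the 2 called genes that fell most and the 1 that rose most in each list, every receptor, the relatives Plin2, Plin3, Plin5, Fabp5 and Retnla, and the 5 genes most like the set. The 10 genes and all lists were chosen with earlier results of these data known. Each group holds separate mice, and p-values set the difference between groups against the spread between mice. Columns of other samples numbered 0.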

Additional observations from a re-analysis of the deposited data

How the results depend on the processing

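No gene of the 10 changed sign under any alternative in any comparison of PyMT with FVB. Of the counts of adipocyte genes called, 158 kept within 1.5 times of the reported count and 4 did not. At week 8 the 9 genes called became 5 when tested against a 2-fold change and 4 to 10 with 1 sample left out (5 without FVB replicate 2 and 4 without PyMT replicate 3, both with fewer samples), and for FVB week 12 against week 6 limma voom called 2 in place of 0. At week 6 the count of 10 was 7 when tested against a 2-fold change, without Pparg, Cfd and Fabp4, and 9 in the fit of 24 samples, without Cfd (adjusted p = 0.0554). With 1 sample left out it ran from 8 to 10, and it was 10 throughout at weeks 10 and 12 and over all weeks. The median log2 fold change of the 10 genes at week 10 moved to −5.27 without PyMT replicate 2 and otherwise stayed within the spread between replicates.

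With the replicate number as a block (replicate block), all 10 genes were called at each week and over all weeks, Cfd at week 8 included (log2 fold change −4.34, adjusted p = 0.0262), and 0 in every comparison between weeks. The labels do not say that the numbers pair mice. Samples of the same number correlated at −0.03 to 0.18 over 12 pairs, 4 of them over 0.1, and in 6 of the 12 pairs the PyMT sample correlated best with the FVB sample of its own number.

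Over all genes the calls moved more. DESeq2 called 1485 and 1648 genes lower at weeks 6 and 8, where edgeR called 964 and 951, and testing against that 2-fold limit called 250, 236, 657, 953 and 1612 genes lower at weeks 6, 8, 10, 12 and over all weeks, against 964, 951, 1356, 1936 and 2571. The exact test called 1513 at week 8. limma voom called 1593 lower at week 8. With 1 sample left out, the count lower at week 8 was 319 without PyMT replicate 1, 464 and 615 without FVB replicates 2 and 3, and 629 without PyMT replicate 3. At week 6 it was 534 and 627 without PyMT replicates 1 and 3, and at week 10 it was 886 without PyMT replicate 1. With library size alone the calls over all weeks were 2002 lower and 2050 higher in place of 2571 and 1269, and at weeks 6, 8, 10 and 12 they were 654 and 779, 745 and 830, 956 and 989, and 1527 and 2054, in place of 964 and 534, 951 and 533, 1356 and 720, and 1936 and 1156. The median of the 10 genes over all weeks was then −3.52 in place of −3.83. The cause of these moves was not tested. Depth limited Retn most, with 1 read in PyMT week 8 replicate 2.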

Other observations

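Lep and Ucp1 were set side by side in the 12 FVB mice after their values had been seen, because Lep varied most among these mice. Ucp1 marks brown adipocytes, which hold little leptin, and Lep marks white ones. The 5 FVB mice with the highest normalized counts of Lep were week 8 replicate 3 (5784), week 10 replicate 2 (5654), week 12 replicate 3 (5136), week 10 replicate 1 (5127) and week 6 replicate 3 (2781). Their Ucp1 was at 6.78, 1607, 5.47, 1184 and 802 normalized counts. The 4 mice with the most Ucp1, week 8 replicate 1 (7650), week 10 replicate 3 (5837), week 12 replicate 1 (4519) and week 6 replicate 1 (4402), had Lep at 2054, 2419, 1561 and 927. All of these but week 8 replicate 1 were also the highest of all samples in skeletal muscle markers. Those sums were 37710, 22840 and 38210 CPM in turn, against 53.4 CPM in week 8 replicate 1. The part of muscle tissue in their Lep was not tested. The other 3 mice, week 6 replicate 2, week 8 replicate 2 and week 12 replicate 2, were low in both, with Ucp1 at 1039, 756 and 1321 and Lep at 1234, 1553 and 1477, so that low Ucp1 did not always go with high Lep. Both mice nearly without Ucp1 were among the 3 highest in Lep, and at each of weeks 6, 8 and 12 the mouse with the least Ucp1 had the most Lep. Week 10 was different, since its mouse with the most Ucp1 had the least Lep but its other two were close in both. These mice were chosen by their values, and no test was made.

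Among the tumors, PyMT week 6 replicate 2 had the most Ucp1, 469 CPM, and also the highest mean of the 10 genes of all tumors, 9.72 on the log2(normalized count + 1) scale, and the highest Pparg (403), Cebpa (803), Plin1 (1539) and Fabp4 (8108), but not the highest Lep, which was 80.3 there and 256 in replicate 3 of the same week. PyMT week 12 replicate 1 had 171 CPM of Ucp1 and Lep at 41.1, the lowest of all tumors.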
